A study of Mus musculus with 2 samples.

Results

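Endothelial nuclei of the fetal mouse kidney were profiled by snATAC-seq. In this assay a transposase inserts adapters into accessible DNA of single nuclei, and the insertions are counted per nucleus in peaks. The nuclei were selected on measured values, their counts in peaks at endothelial genes, among the 20924 barcodes that held 4000 to 100000 counts. A member needed a count in the peaks of at least 3 of 7 endothelial genes (Pecam1, Cdh5, Kdr, Tie1, Emcn, Flt1 and Tek, over the gene body and 2 kb upstream). It also had to be in the top 4% of barcodes by the share of its counts in those peaks, with both libraries pooled. The top 4% held 837 barcodes, of which 119 had fewer than 3 markers, so 718 nuclei were members. The Enl-WT library gave 462 of them and Enl-T1 the other 256.

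Endothelial cells line the blood vessels, and in the fetal kidney they form the capillary loops of the glomeruli, the capillaries around the tubules and the arteries and veins that feed and drain them. They answer to Vegf ligands, made largely by neighbouring epithelium and stroma, through the receptors Kdr, Flt1 and Flt4, and to angiopoietins through Tek. Ets factors such as Erg and Fli1 and SoxF factors such as Sox7, Sox17 and Sox18 are known to keep endothelial genes active, and Notch signalling is known for its part in arterial fate.

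Kidneys were taken at E15.5, and each group was 1 library. Both groups carried Wt1 GFPCre, a knock-in that expresses Cre from Wt1 and inactivates that Wt1 allele. Enl-WT embryos had normal Enl alleles (Enl, also Mllt1, is a chromatin reader), and Enl-T1 embryos were heterozygous for a conditional allele that Cre turns into an Enl mutation found in Wilms tumour. This Cre acts in the nephron and stromal lineages, so endothelial cells lie outside its known target lineages. How many embryos were behind each library is not stated in these sources, and by the study's methods the sex of the embryos was not determined. With 1 library a group there was no replicate spread and no test between groups, and every interval below is a 95% interval that covers counting error only. Levels are CPM, a gene's or region's counts scaled to the total of the same nuclei in regions shared by the libraries.

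The Enl-WT library held 9628 barcodes with 138176616 counts and the Enl-T1 library 13376 barcodes with 110265593 counts. Barcodes of the same sequence occurred in both libraries 169 times, and 8 members had such a barcode, with no pair of members sharing one. The Enl-T1 nuclei were shallower. The median depth of members was 14783.5 counts in Enl-WT and only 8090.5 for Enl-T1, against 14903.5 and 9045.5 in the other nuclei. Peaks were called in each library separately, and the 110706 shared regions spanned 114.8 Mb by the Enl-WT peaks but 103.2 Mb by those of Enl-T1, so a level in Enl-T1 was often counted over a narrower stretch.

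The share of counts in marker peaks was the rule itself and is only described. The last member inside the limit had 0.103% of its counts in marker peaks, and the median over all barcodes was 0.0202%. Members had a median of 0.143% in Enl-WT and 0.136% in Enl-T1. The largest ratio was at Tie1, a receptor-like kinase of endothelium, with 113 CPM of all peak counts in Enl-WT members and 8.86 CPM in the other nuclei, and in Enl-T1 the values were 110 and 5.20 CPM. Pecam1, an adhesion molecule of endothelial junctions, stood at 371 and 58.2 CPM in Enl-WT and at 390 and 64.3 CPM in Enl-T1. The smallest ratios were at the Vegf receptor gene Flt1, at 4.73-fold and 4.42-fold. Emcn, which encodes a sialomucin of capillaries and veins, had a count in 31.8% of Enl-WT members and 14.1% of Enl-T1 members. It was counted over 5 peaks (5189 bp) in Enl-WT but 1 peak (908 bp) in Enl-T1. Over its region shared by the libraries, Enl-WT members had 30.4 CPM and Enl-T1 members 36.7 CPM, or 0.27 log2 (-0.32 to 0.84). Fewer markers were seen per nucleus in the shallower library. Exactly 3 markers had a count in 16.5% of Enl-WT members and 47.3% of Enl-T1 members, and all 7 had one in 20 and 0 nuclei.

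Genes outside the rule showed which members carried open chromatin typical of endothelium. All 20924 nuclei were clustered after the 48 regions at the marker genes had been left out, and 1 cluster of 1332 nuclei held 626 of the 718 members (87.2%). It is called endothelial-like here because Cldn5 and Aplnr, genes outside the rule, were among its 10 leading genes. Only genes with at least 200 counts in members were ranked. Cldn5 was 3.94 and 4.18 log2 above the nuclei outside the cluster in Enl-WT and Enl-T1. The rule marker Tie1 also led, but the cluster was taken as the one with most members, so Tie1 lends no support. The cluster held 428 of the Enl-WT members and 198 of the Enl-T1 members. The summed pan-endothelial list was 1.51 log2 above the other nuclei in these members in each library. In the 92 members outside the cluster, 34 of Enl-WT and 58 of Enl-T1, the same sum was at -0.13 and 0.04 log2, although their rule markers were 2.44 and 2.37 log2 higher. Regions of these genes and of Aplnr were used in the clustering, so this contrast is partly set by it and is only described. Members outside the cluster did not share the raised pan-endothelial sum, and they were 7.36% of Enl-WT members against 22.7% of Enl-T1 members. The summed stroma list was 0.35 and 0.26 log2 above the other nuclei in them, against -0.75 and -0.80 in the members of the cluster. A further 329 Enl-WT and 377 Enl-T1 nuclei of the cluster were not members, and their pan-endothelial sum was 1.29 and 1.25 log2 higher than in the other nuclei. They are themselves part of those other nuclei, here and in the ratios of members to other nuclei, which lowers such ratios at endothelial genes. The nuclei of this cluster that the rule did not take give a second look at each difference between the libraries below. They come from the same 2 libraries and are no replicate of them.

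**Figure D1:**
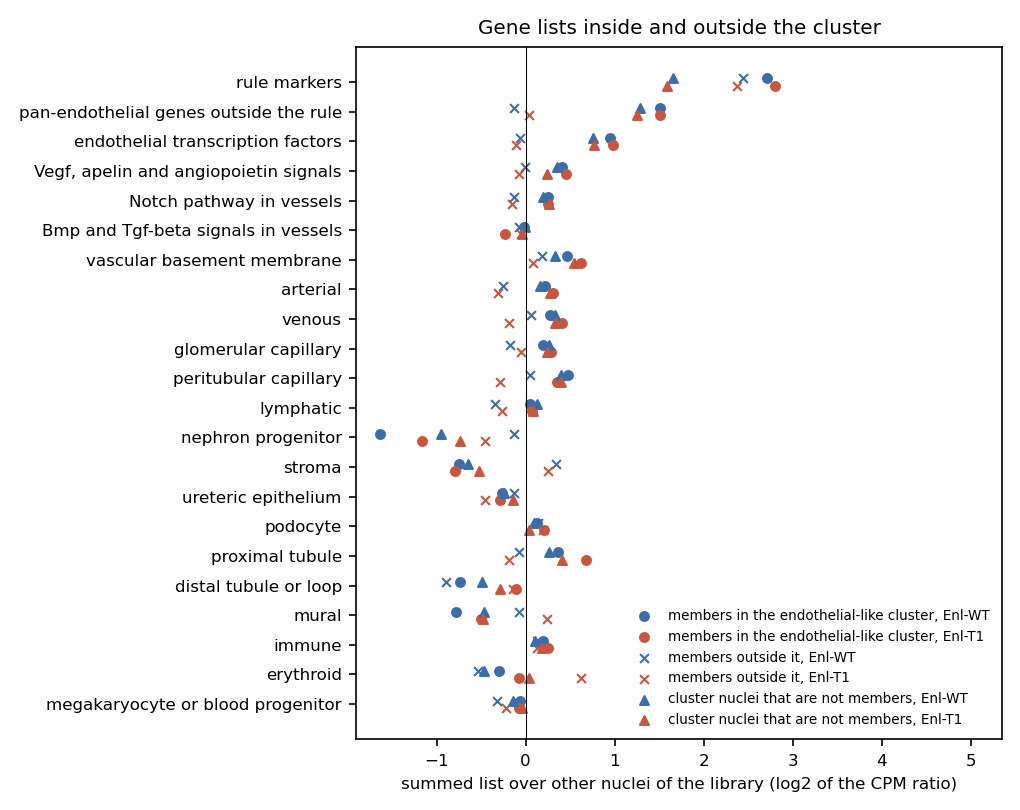
Summed accessibility of each gene list, as the log2 ratio of its CPM to that of the nuclei of the same library that were not members (x axis), for members in the endothelial-like cluster (circles), members outside it (crosses) and nuclei of the cluster that were not members (triangles), in Enl-WT (blue) and Enl-T1 (red). The crosses lie near 0 for the pan-endothelial list, at -0.13 and 0.04, where the circles lie at 1.51.

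Pan-endothelial genes outside the rule were mostly more open in members. Of 25 genes with at least 50 counts in members, 17 (68.0%) were at least 2-fold higher in both libraries and 0 were at least 2-fold lower, beside 2.35% and 2.61% of all 15022 genes that could be counted. The median of the list was 1.55 log2 in Enl-WT and 1.46 in Enl-T1, against 0.05 and 0.05 over all genes. Cldn5, the tight-junction claudin of endothelium, had 38.5 CPM in Enl-WT members against 3.33 in the other nuclei. In Enl-T1 it had 33.8 against 2.29 CPM, so the ratios were 11.6-fold and 14.7-fold. She, an adaptor protein gene, stood at 165 against 22.6 CPM in Enl-WT and at 156 against 20.2 CPM in Enl-T1. Adgrf5, an adhesion G protein-coupled receptor of microvessels, stood at 268 against 61.2 CPM and at 199 against 49.8 CPM. Eng, the Tgf-beta co-receptor endoglin, was 3.30-fold and 3.51-fold higher in members, and Afap1l1 was 2.94-fold and 2.31-fold higher. Myct1 was 9.17-fold and 7.46-fold higher and was chosen after its values were seen. Counted only within 2 kb either side of the outermost annotated start of each gene, 13 rather than 17 genes reached 2-fold in both libraries. Not every endothelial gene was set apart in this way. Rasip1, which acts in lumen formation, was at 1.27-fold and 0.93-fold. Ramp2, the partner of the adrenomedullin receptor, was at 1.15-fold and 1.04-fold and Nos3, the endothelial nitric oxide synthase, at 0.98-fold and 1.11-fold, both picked after their values were seen. Arhgef15 had 16 and 10 counts in members and was too shallow to place.

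**Figure D2:**
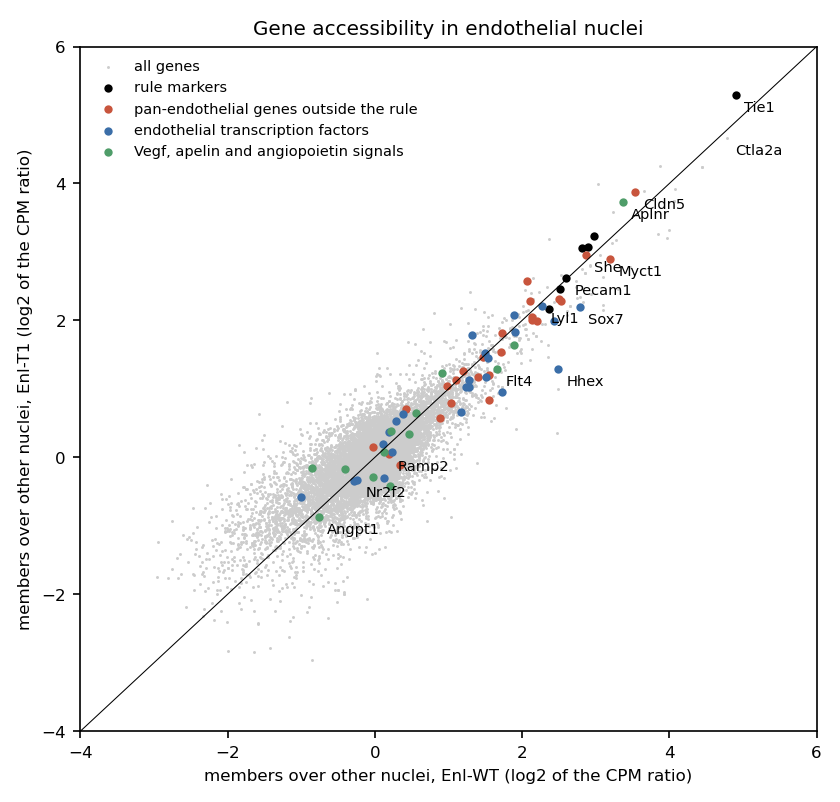
Each gene with at least 50 counts in members, by its log2 ratio of members to other nuclei in Enl-WT (x axis) and Enl-T1 (y axis). The line marks equal ratios. Cldn5 and Aplnr lie beside the rule markers at 3.53 and 3.36 in Enl-WT, and Hhex lies below the line, at 2.49 in Enl-WT and 1.29 in Enl-T1.

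Transcription factor genes of endothelium were raised as a group. Of 24 genes, 13 (54.2%) were at least 2-fold higher in members of both libraries and 0 were at least 2-fold lower, beside 2.35% and 2.61% of all genes. The medians were 1.28 log2 in Enl-WT and 1.02 in Enl-T1. Erg, an Ets factor that keeps endothelial identity, stood at 239 CPM in Enl-WT members against 63.8 in the other nuclei, and at 203 against 57.2 CPM in Enl-T1. Counted only within 2 kb either side of the outermost annotated start of Erg, the smaller of its ratios was 0.15 log2, and other starts of the gene were not covered. Elk3, another Ets factor, was 2.42-fold and 2.19-fold higher. Sox7, a SoxF factor, had 46.0 against 6.69 CPM in Enl-WT and 30.8 against 6.71 CPM in Enl-T1. Sox17, the SoxF factor of arteries, was 3.70-fold and 4.22-fold higher. Hhex, a homeobox factor of blood and vessel progenitors, was 5.61-fold and 2.45-fold higher. Ets1 was at 1.31-fold and 1.55-fold, and Mecom at 1.08-fold and 1.14-fold. Nr2f2, the factor of venous fate that stroma also uses, was at 0.84-fold and 0.80-fold.

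Signalling genes were set apart less often than the pan-endothelial genes. Of 13 genes for Vegf, apelin and angiopoietin signals, 3 (23.1%) were at least 2-fold higher in both libraries and 0 were at least 2-fold lower. Over all genes the shares were 2.35% and 2.61%. Aplnr, the apelin receptor of veins and sprouting vessels, had 36.6 CPM in Enl-WT members and 3.56 in the other nuclei, and 39.6 and 2.98 CPM in Enl-T1. Flt4, the receptor of Vegfc, was 3.15-fold and 2.45-fold higher. Esm1, a secreted product of tip cells, was 3.70-fold and 3.13-fold higher on 44 and 20 counts, and was named because it completes the count. The co-receptors Nrp1 and Nrp2 were at 1.38-fold and 1.27-fold and at 1.47-fold and 1.56-fold, and the ligand gene Vegfa at 1.09-fold and 1.06-fold. In the Notch pathway, 0 of 8 genes reached 2-fold in both libraries in either direction. Notch4, the endothelial Notch receptor, was at 1.97-fold and 1.65-fold, while Notch1 was at 1.45-fold and 1.36-fold. Hes1 was at 1.21-fold and 1.21-fold and Rbpj at 0.89-fold and 0.88-fold. Of 9 genes for Bmp and Tgf-beta signals, 0 were higher by this measure and 1 was lower, Bmper, a Bmp-binding protein that stood at 0.34-fold and 0.42-fold. The Tgf-beta receptor gene Tgfbr2 was at 2.31-fold and 1.71-fold, and Acvrl1, the endothelial Alk1 receptor, at 1.43-fold and 1.24-fold. Smad6 and Smad7, the most open genes of that list in members, were at 0.85-fold and 0.72-fold and at 0.83-fold and 0.73-fold. Of 8 vascular basement membrane genes, 0 reached 2-fold in both libraries. For lists of 8 or 9 genes, counts of 0 lie near the shares over all genes and are no result about these lists. Hspg2, which encodes perlecan, was at 1.45-fold and 1.66-fold, and Col4a2 at 1.46-fold and 1.54-fold.

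At most 1 gene of each vessel type list was at least 2-fold higher in both libraries. Over all genes the share was 2.35%, and on lists this short counts of 0 or 1 are no result about a list. At least 2-fold higher in both libraries were 1 of 11 arterial genes (Sox17), 1 of 6 venous genes (Aplnr), 0 of 9 glomerular capillary genes, 1 of 6 peritubular capillary genes (Plvap) and 1 of 7 lymphatic genes (Flt4, which blood capillaries of the fetus also use). Plvap, the diaphragm protein of fenestrated capillaries, had 114 against 39.5 CPM in Enl-WT and 86.1 against 32.8 CPM in Enl-T1. The arterial gene Unc5b was at 1.30-fold and 1.11-fold, the venous gene Ephb4 at 1.16-fold and 1.22-fold, and Cyp26b1 of the glomerular list at 1.53-fold and 1.80-fold. Prox1, the defining factor of lymphatic endothelium, was at 1.53-fold and 1.36-fold. Nostrin and Pdpn were the only genes of these lists at least 2-fold lower in both libraries, both chosen after their values were seen. The arterial genes Dll4 and Bmx had no region shared by the libraries and were not compared here.

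Markers of other kidney cells were low or level in members, with exceptions. The summed nephron progenitor list was at -1.49 log2 relative to the other nuclei in Enl-WT and -0.98 in Enl-T1. Of its 5 countable genes, 3 (Six2, Eya1 and Sall1) were at least 2-fold lower in both, beside 2.61% of all genes. The stroma list was at -0.66 and -0.50 log2 and the mural list, of pericytes and smooth muscle, at -0.73 and -0.31. The distal tubule or loop list was at -0.75 and -0.11, the ureteric epithelium list at -0.25 and -0.33, the podocyte list at 0.13 and 0.20, the proximal tubule list at 0.35 and 0.53, and the immune list at 0.19 and 0.22. The erythroid list stood at -0.31 and 0.10 and the megakaryocyte or blood progenitor list at -0.08 and -0.10. Cubn, the endocytic receptor of proximal tubule, was 2.57-fold and 2.38-fold higher in members and carried the proximal tubule sum, while Lrp2 of the same list was at least 2-fold lower in both. Pf4, the platelet chemokine gene, was 11.1-fold and 6.87-fold higher, with 29.5 against 2.67 CPM in Enl-WT and 28.9 against 4.20 CPM in Enl-T1. Both exceptions were noticed after the values were seen. Rgs5, a pericyte gene, was the only mural gene at least 2-fold lower in both, named to complete that count. The most open gene of 8 other lists stayed within 2-fold of its level in the other nuclei. Cx3cr1 of the immune list was at 1.34-fold and 1.29-fold, Synpo at 1.56-fold and 1.42-fold, Gata3 at 1.22-fold and 1.10-fold, Meis1 at 0.91-fold and 0.73-fold, Cspg4 at 0.65-fold and 0.71-fold, Sim1 at 0.57-fold and 1.19-fold, Klf1 at 0.76-fold and 1.08-fold, and Itga2b at 0.92-fold and 1.02-fold.

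Over all genes with at least 200 counts in members, the highest ratio after Tie1 was at Ctla2a, a small protease inhibitor gene, with 36.8 against 1.33 CPM in Enl-WT and 30.8 against 1.21 CPM in Enl-T1. The gene models Gm49391 and Gm49393 overlap it and share its reads, so their 21.7-fold and 18.9-fold cannot be told apart from it. Fam124b followed at 12.7-fold and 14.8-fold. Clec1a, a C-type lectin of endothelium, was at 14.4-fold and 9.61-fold. The unnamed models Gm9833 and Gm36028 were at 15.9-fold and 10.0-fold and at 9.38-fold and 11.9-fold. The rule used no count at these genes, but members were taken from the same nuclei, and the ratios are given as a description.

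Regions beyond promoters were ranked by their ratio of members to the other nuclei in each library. Of 2128 shared regions more than 2 kb from any annotated transcription start with at least 50 counts in members of each library, 67.4% (Enl-WT) and 69% (Enl-T1, by its own counts) were at least 2-fold above the other nuclei. That minimum runs through the members and selects regions high in them. Over all 79776 shared regions more than 2 kb from a start, with no minimum, the shares were 10.3% and 11.1%, and with at least 100 counts in members of each library (209 regions) they were 49.8% and 50.7%. Ranked within each library, the 500 highest regions of Enl-WT and the 500 highest of Enl-T1 shared 415 regions, or 83.0% of each list. All 500 regions of each list were at least 2-fold higher in the other library too. Of the 415 shared ones, 30 (7.23%) had a gene of the role and vessel type lists as their closest protein-coding start, against 95 of the 2128 regions (4.46%). By closest gene, the most regions among the 415 lay near Kdr (4 of 4 tested) and Mc2r (4 of 5). Next came Erg and Irx3 (3 of 3 each), 1700020N01Rik and Plk2 (3 of 4 each) and Ets1 (3 of 6). All are named because they lead that count. Kdr is a rule marker, so members were selected on counts at this gene. Regions in the marker genes and 2 kb upstream of them were left out of the 2128.

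The region with the highest ratio in the lower of the libraries was chr15:75592692-75593614 (mm10), 3.01 kb from the start of Gpihbp1, which carries lipoprotein lipase across the capillary wall. It had 59.7 CPM in Enl-WT members against 2.95 in the other nuclei, and 52.4 against 2.75 CPM in Enl-T1, or 20.2-fold and 19.1-fold. An intergenic region at chr2:124857970-124859077, 209 kb from its closest coding start (Slc24a5), was at 18.6-fold and 19.4-fold. Region chr2:85163269-85164319, in an intron of Lrrc55 and 27.0 kb from the start of Aplnr, was at 17.3-fold and 16.9-fold. Region chr8:70276199-70277145, in an intron of Sugp2 and 5.68 kb from the start of Homer3, was at 19.3-fold and 16.4-fold. Intergenic region chr17:67512443-67513665, closest to Lrrc30, was at 16.1-fold and 16.5-fold, and chr9:122022277-122023564, in an exon of the non-coding gene Gm39465 and closest to Pomgnt2, at 15.8-fold and 15.7-fold. Peak widths of these 6 regions differed little between the libraries except at chr17:67512443-67513665, where Enl-WT had 1223 bp against 944 bp for Enl-T1. No ratio of Enl-T1 to Enl-WT members in them reached 1.5-fold, the range being -0.34 to 0.05 log2.

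The central windows of 3 of these regions are shown because they range from none to several copies of the core of the Ets site. Each is the central 300 bases on the plus strand, and the capitals mark AGGAAG or CCGGAA on either strand. The windows are chr15:75593003-75593302 near Gpihbp1, chr8:70276522-70276821 near Homer3 and chr2:85163644-85163943 near Aplnr.
Gpihbp1 region: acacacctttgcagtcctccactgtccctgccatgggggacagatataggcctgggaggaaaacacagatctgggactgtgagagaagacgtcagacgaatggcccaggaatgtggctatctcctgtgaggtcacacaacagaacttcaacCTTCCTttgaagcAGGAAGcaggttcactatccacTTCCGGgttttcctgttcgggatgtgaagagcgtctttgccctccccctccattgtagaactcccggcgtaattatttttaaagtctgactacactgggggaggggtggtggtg
Homer3 region: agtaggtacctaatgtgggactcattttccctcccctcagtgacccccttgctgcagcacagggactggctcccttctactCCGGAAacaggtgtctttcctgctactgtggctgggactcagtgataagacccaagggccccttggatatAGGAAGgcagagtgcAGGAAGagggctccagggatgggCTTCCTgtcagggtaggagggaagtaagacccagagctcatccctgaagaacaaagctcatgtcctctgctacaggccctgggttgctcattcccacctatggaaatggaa
Aplnr region: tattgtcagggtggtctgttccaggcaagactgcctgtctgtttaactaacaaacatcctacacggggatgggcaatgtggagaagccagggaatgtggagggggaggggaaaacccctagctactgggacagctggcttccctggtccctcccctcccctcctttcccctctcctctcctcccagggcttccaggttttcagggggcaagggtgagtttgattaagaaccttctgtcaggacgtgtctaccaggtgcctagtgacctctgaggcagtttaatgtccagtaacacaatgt
The Gpihbp1 window held AGGAAG 2 times and CCGGAA 1 time, the Homer3 window 3 times and 1 time, and the Aplnr window held neither in these 300 bases.

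Over the lists, AGGAAG on either strand occurred in 80.1% of 492 windows of the Enl-WT list and 78.7% of the Enl-T1 list, against 62.6% of all 2063 windows tested and 39.8% of the 500 windows lowest in Enl-WT members. CCGGAA, the other Ets string, was not more common, at 9.15% and 9.92% against 11.7%. The Sox string AACAAT occurred in 24.6% and 24.7% of list windows against 16% of all, the Gata string AGATAA in 15.2% and 14.8% against 10.9%, and the nuclear receptor string AGGTCA in 28.7% and 28.3% against 20.6%. The Hnf1 string GTTAAT was at 7.72% and 7.29% against 5.87%, and the Mef2 string CTATTTT at 8.13% and 7.29% against 5.67%. The Fox string GTAAACA was at 5.08% and 5.87% against 4.31%. The E-box and Klf strings were not more common, and the AP-1, Tead and Rbpj strings differed in direction between the lists. List windows were poorer in G and C, at a mean of 50.6% in Enl-WT against 53.7% in all windows and 58.0% in the lowest, and the part of base composition in these shares was not tested. These are occurrences of letters, not measured binding.

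Members fell into 4 subgroups when clustered among themselves without the marker regions. Subgroup 1 held 361 nuclei and subgroup 2 held 219, all of them in the endothelial-like cluster of all nuclei. Subgroup 2 is called arterial-like, since 8 of 11 arterial genes were at least 0.5 log2 above the other members, among them the gap junction genes Gja5 (1.19) and Gja4 (1.34), the chemokine receptor gene Cxcr4 (0.90) and the Notch target Hey1 (0.68). In subgroup 1 the peritubular capillary genes Plvap, Cd36 and Plpp1 were 0.68, 0.73 and 0.55 log2 above the other members, while the other genes of that list, Igfbp5, Npr3 and Igfbp3, were at 0.07, -0.26 and -0.43. Subgroup 3 held 74 nuclei, of which 17 lay in the endothelial-like cluster. It is called stroma-like, since 6 of 8 stroma genes were raised, with Dcn at 4.31, Pdgfrb at 2.74 and Col1a1 at 1.60 log2, while Erg was at -1.53 and Cldn5 at -3.08. In it 5 of 8 mural genes were raised as well, with Rgs5 at 2.17. Subgroup 4 held 64 nuclei, of which 29 lay in the cluster. It had raised genes of the distal tubule or loop list (Sim1, Pou3f3 and Tfap2b), 3 genes of the mural list, and 2 genes each of the nephron progenitor, ureteric epithelium, podocyte, proximal tubule and lymphatic lists, and it is left unnamed. These genes defined the subgroups and are no result about them. A raised gene also needed at least 20 CPM, and the share of all genes that pass this call was not counted. The median depth was 13884 counts in subgroup 1, 11073 in subgroup 2, 8641 in subgroup 3 and 9899.5 in subgroup 4. Doublets were not removed, and the part of doublets in subgroups 3 and 4 was not tested.

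**Figure D3:**
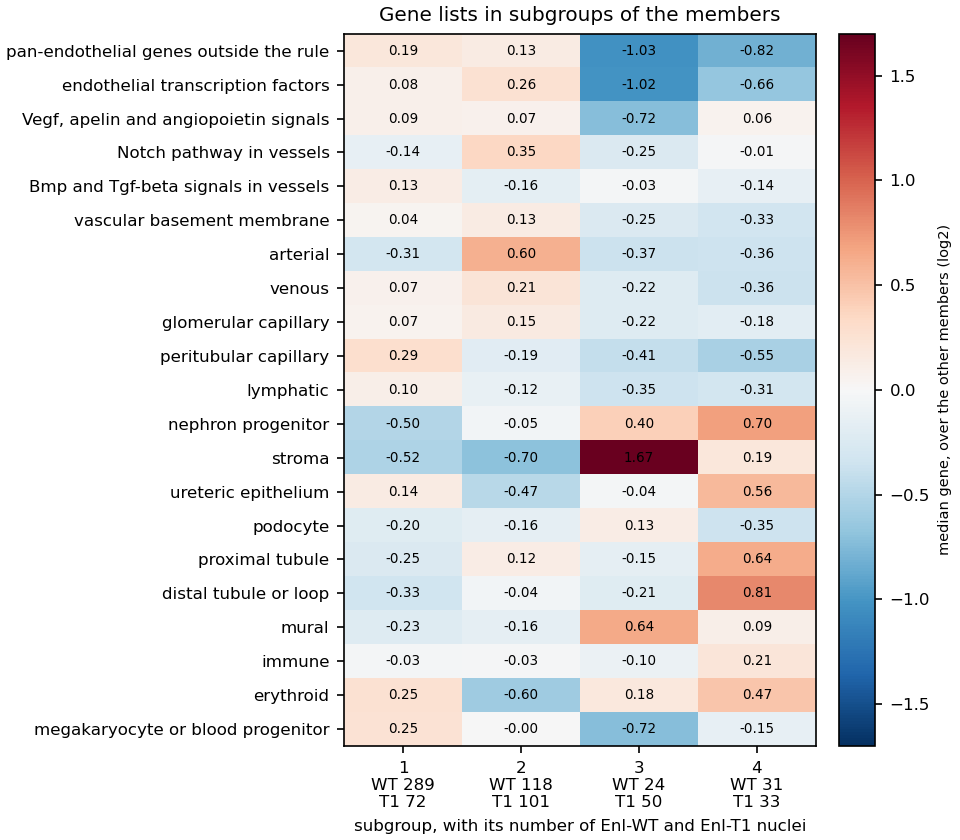
Median log2 ratio of the genes of each list (rows) in each of the 4 subgroups of members (columns) to the other members, with the number of Enl-WT and Enl-T1 nuclei under each column. The arterial list is highest in subgroup 2, at 0.60, and the stroma list in subgroup 3, at 1.67.

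Endothelial nuclei were a smaller share of the Enl-T1 library. Members were 4.98% of Enl-WT nuclei (462 of 9270, interval 4.55 to 5.45%) and 2.20% of Enl-T1 nuclei (256 of 11654, 1.94 to 2.48%), a ratio of 2.27 (1.94 to 2.65). The endothelial-like cluster, which did not use the marker regions, held 8.17% of Enl-WT nuclei (7.62 to 8.74%) and 4.93% of Enl-T1 nuclei (4.55 to 5.34%), so the ratio was 1.66 there. With each barcode thinned to 4000 counts before the rule was applied, the shares were 4.20% and 1.81%. Enl-WT was above Enl-T1 under every other threshold and marker set tried, as the plot of shares by setting shows. These are shares of the barcodes of 1 library each, and a change in the number of other nuclei, the handling of 1 tissue sample and the genotype cannot be told apart. Subgroup 1 made up 62.6% of the Enl-WT but 28.1% of the Enl-T1 members, and subgroup 2 made up 25.5% and 39.5%. With the components centred within each library these became 53.9% and 35.2%, and 24.7% and 28.5%, and the shares of the libraries came closer to each other. Centring itself draws the libraries together, and that run made 5 groups and kept 146 of the 219 nuclei of subgroup 2. The depth of the libraries differed as given above. Subgroup 3 took 5.19% of Enl-WT and 19.5% of Enl-T1 members, and subgroup 4 took 6.71% and 12.9%.

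**Figure D4:**
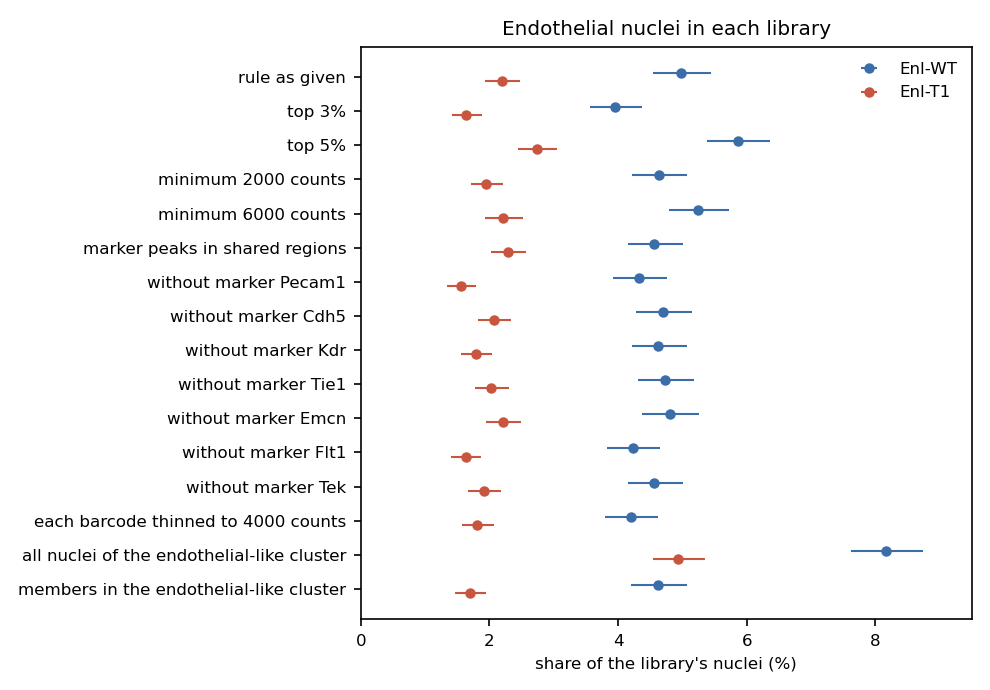
Share of each library's nuclei taken as endothelial (x axis, %) under each setting of the rule (rows) and by the endothelial-like cluster, with exact binomial intervals, for Enl-WT (blue) and Enl-T1 (red). The Enl-WT share lies above the Enl-T1 share in each row, from 4.98% and 2.20% with the rule as given to 8.17% and 4.93% for the whole cluster.

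Within members, the summed pan-endothelial genes were slightly less open in Enl-T1, and nearer to level once the members outside the cluster were left out. Over all members the pan-endothelial list was at 2112 CPM in Enl-T1 and 2414 CPM in Enl-WT, or -0.19 log2 (-0.26 to -0.12). In members of the cluster it was at -0.04 (-0.11 to 0.03), in cluster nuclei that were not members at -0.08 (-0.14 to -0.01) and over all nuclei of the cluster at -0.11 (-0.16 to -0.07). Per kb of peak the value in members was -0.05. Over all genes with at least 100 counts the median was -0.02, and per kb of peak it was 0.12. Values per kb thus lie higher in general and are to be read beside that median. The transcription factor list went from -0.11 (-0.17 to -0.04) to 0.02 (-0.04 to 0.09). The Bmp and Tgf-beta list was at -0.17 (-0.28 to -0.06) in all members and -0.21 (-0.33 to -0.09) in those of the cluster, but at -0.03 (-0.13 to 0.06) in cluster nuclei that were not members and -0.01 in members per kb of peak. The Notch list went from -0.14 (-0.26 to -0.03) to -0.08 (-0.21 to 0.04). The Vegf, apelin and angiopoietin list was at 0.01 (-0.10 to 0.12) and the basement membrane list at -0.10 (-0.21 to 0.00) in all members. Among the lists of other cells, the nephron progenitor, stroma and mural lists lay higher in Enl-T1 members, with intervals above 0. The distal tubule or loop list was at 0.31 (-0.02 to 0.63) and the erythroid list at 0.48 (-0.10 to 1.05). The proximal tubule list was at 0.05, podocyte at -0.02, ureteric epithelium at -0.03, megakaryocyte or blood progenitor at -0.02 and immune at -0.08. The summed nephron progenitor list was at 0.43 (0.08 to 0.77) in all members, 0.39 (-0.03 to 0.79) in those of the cluster and 0.35 (0.12 to 0.57) over all nuclei of the cluster, against -0.08 (-0.11 to -0.04) in nuclei that were not members. The stroma list was at 0.23 (0.03 to 0.42) in all members, 0.02 (-0.22 to 0.26) in those of the cluster and 0.20 (0.01 to 0.38) in cluster nuclei that were not members. The mural list was at 0.38 (0.16 to 0.60), 0.24 (-0.01 to 0.49) and -0.05 (-0.26 to 0.15) in the same sets. The part of signal from other cells in these differences was not tested. Among the vessel type lists, peritubular capillary genes were at -0.28 (-0.46 to -0.10) in all members, -0.19 (-0.39 to 0.00) in those of the cluster and -0.13 (-0.25 to -0.01) over all nuclei of the cluster. The arterial list was at -0.01 (-0.13 to 0.11), the venous list at 0.06 (-0.08 to 0.20), the glomerular list at 0.08 (-0.09 to 0.25) and the lymphatic list at 0.00 (-0.23 to 0.22) in all members. The peaks of the peritubular list summed to 31710 bp for Enl-WT but 29260 bp for Enl-T1. Per kb of peak the list was at -0.17, beside the median of 0.12 over all genes.

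Single genes of the lists rarely differed by 1.5-fold. Of all 13684 genes with at least 100 counts in members, 3.68% were at least 1.5-fold higher and 3.32% at least 1.5-fold lower in Enl-T1. By this measure 0 of 25 pan-endothelial genes differed, 1 of 24 transcription factor genes was lower (Hhex), 1 of 12 signal genes was higher (Angpt2) and 1 lower (Vegfb), 1 of 8 Notch genes was lower (Hey2) and 1 of 9 Bmp and Tgf-beta genes was higher (Bmper). In the vessel type lists no gene differed by that much. Among other-cell lists, 3 of 6 mural, 2 of 3 nephron progenitor and 1 of 5 stroma genes were higher and 0 lower in Enl-T1. The podocyte and the distal tubule or loop lists each had 1 of 3 genes higher and 0 lower. In the remaining other-cell lists no gene differed by that much. Angpt2, the ligand that loosens vessels for sprouting, stood at 40.6 CPM in Enl-T1 and 25.4 in Enl-WT, or 0.67 log2 (0.09 to 1.24), and at -0.11 (-0.68 to 0.44) in the cluster nuclei that were not members. Vegfb, a ligand of Flt1, was at 12.7 and 24.3 CPM, or -0.93 (-1.91 to -0.07), and at -0.11 in those nuclei. Hey2, a Notch target of arteries, was at 38.2 and 60.0 CPM, or -0.65 (-1.19 to -0.15), and at -0.05 there. Jag2, a Notch ligand, was at 0.57 (0.04 to 1.09), and at 0.29 there. Of the pan-endothelial list, Rasip1 was furthest from level at -0.51 (-0.92 to -0.13), followed by Tmem204 at -0.48 (-0.79 to -0.18), and these were at -0.22 and -0.05 in the cluster nuclei that were not members. Bmper was at 0.62 (0.07 to 1.15) in members and at 0.32 in the nuclei that were not members.

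**Figure D5:**
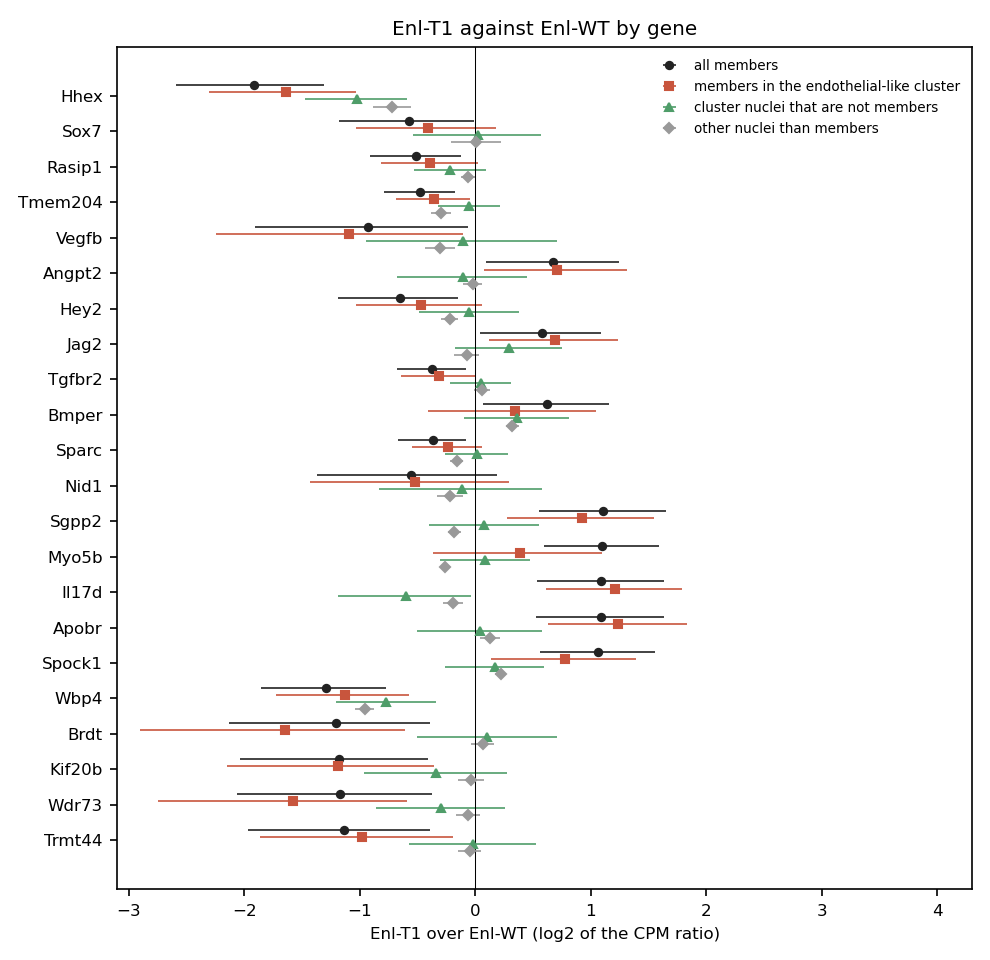
Log2 ratio of Enl-T1 to Enl-WT (x axis) for named genes (rows) with 95% counting intervals, in all members (black), members of the endothelial-like cluster (red), nuclei of the cluster that were not members (green) and all nuclei that were not members (grey). Hhex is below 0 in all 4 sets, at -1.92, -1.64, -1.03 and -0.72, while Sgpp2 goes from 1.10 in all members to 0.08 in the cluster nuclei that were not members.

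Hhex was the gene of the lists with the largest difference. Its single region, chr19:37434246-37436160, covers the start of the gene (chr19:37434810-37440731, plus strand), and it held 524 counts (88.9 CPM) in Enl-WT members and 48 counts (23.5 CPM) in Enl-T1 members. The ratio was -1.92 log2 (-2.59 to -1.31). The Enl-WT peak spanned 1915 bp and the Enl-T1 peak 910 bp, so the libraries were counted over unequal stretches, and per kb of peak the ratio was -0.85. In the nuclei that were not members, with the same unequal peaks, it was -0.72 (-0.89 to -0.56). In cluster nuclei outside the members it was -1.03 (-1.48 to -0.59), at 78.6 CPM in Enl-WT and 38.6 CPM in Enl-T1. The region was 2.49 log2 above the other nuclei in Enl-WT members and 1.29 in Enl-T1 members. Among regions within about 100 kb of the start, looked at after the Hhex value was seen, the region at chr19:37481376-37482345, 47.05 kb downstream of the start, was also strongly endothelial, at 4.36 and 3.81 log2 above the other nuclei. It was called over nearly equal widths, 913 and 933 bp, and had 38.8 CPM in Enl-WT members and 26.4 CPM in Enl-T1 members, or -0.56 (-1.22 to 0.06). The next region, 71.8 kb downstream and closest to Exoc6, was at 0.37 (-0.24 to 0.96). How much of the Hhex difference comes from the peak width was not tested.

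Outside the lists, the genes with the highest ratio of Enl-T1 to Enl-WT among those with at least 200 counts in members were Sgpp2 (49.9 against 23.2 CPM, 1.10 log2), Myo5b (1.10), Il17d (1.09), Apobr (1.09) and Spock1 (1.06). Myo5b, a motor of epithelial vesicle transport, and Sgpp2, a sphingosine phosphatase, were less open in members than in the other nuclei of both libraries. In the cluster nuclei that were not members these 5 genes were at 0.08, 0.09, -0.60, 0.04 and 0.17. The lowest were Wbp4 (33.3 against 81.7 CPM, -1.30 log2), Brdt (-1.21), Kif20b (-1.18), Wdr73 (-1.17) and Trmt44 (-1.14). Wbp4 had a 1278 bp peak in Enl-WT but a 553 bp one in Enl-T1, was at -0.96 in the nuclei that were not members and at -0.09 per kb. The other 4 were at 0.10, -0.34, -0.29 and -0.02 in the cluster nuclei that were not members. None of the 9 genes other than Wbp4 kept a 1.5-fold difference in the same direction in those nuclei.

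By region, more were lower than higher in Enl-T1 members among regions with enough counts. Of 21273 shared regions with at least 100 counts in members of the 2 libraries together, 814 (3.83%) were at least 1.5-fold higher and 2652 (12.5%) at least 1.5-fold lower, with a median of -0.10 log2. Enl-WT members supplied 5896674 counts in shared regions and Enl-T1 members 2043626. Regions thus met this minimum mostly through Enl-WT, which favours regions high there, and the excess of lower regions is no result about Enl-T1. With no minimum the order turned, at 33.8% higher and 19.6% lower, and in the nuclei that were not members, with the minimum of 100 counts, 8.89% were higher and 5.30% lower. Nuclei that were not members, thinned to the counts of the members, had 5.49% higher and 9.36% lower with a median of -0.03. Among regions beyond 2 kb of a start 20.5% were lower, against 8.10% of regions closer to one. In members of the cluster 5.23% were higher and 10.1% lower, and in the cluster nuclei that were not members 3.71% and 6.74%. The 415 regions highest in members of both libraries had a median of -0.15 in all members and 0.08 in those of the cluster, while the other 1713 regions had -0.03 and 0.09. Among regions matched by an overlap of at least 80% both ways, the lowest was chr10:39555065-39556047 in an intron of Fyn, a Src-family kinase, with 137 counts in members of Enl-WT against 7 for Enl-T1, or -2.80 log2 (-4.89 to -1.30). Next came chr15:60982313-60983368 (closest to A1bg) at -2.72, chr16:23897896-23898714 (closest to Sst) at -2.52 and chr15:95880262-95881217 in an intron of Ano6, a lipid scramblase, at -2.49. The next 3 had 111, 97 and 189 counts in Enl-WT members against 6, 6 and 12 in Enl-T1 members. The minimum of 100 counts was on both libraries together, and these 4 regions passed it mostly through Enl-WT. In the cluster nuclei that were not members these 4 were at -0.55, -0.62, -0.33 and -0.66, with intervals that held 0. The highest were chr11:97280246-97281110 at Npepps (1.38), chr7:127386589-127387580 at 9130019O22Rik (1.37), chr3:146379692-146380717 (closest to Ssx2ip, 1.36) and chr16:24282046-24283067 (closest to Lpp, 1.33). In the cluster nuclei that were not members they were at -0.45, 0.02, -0.37 and 0.23, so none kept a 1.5-fold difference there.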

How the data were processed

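The labels and the study's methods describe nuclei of E15.5 mouse kidneys, 1 Enl-WT and 1 Enl-T1 library, made with 10x single-cell ATAC chemistry. The authors deposited, per library, raw counts of transposase cuts per peak and barcode, from Cell Ranger ATAC 2.1.0 on mm10 with peaks called in each library separately. Most listed values were even (91.1% in Enl-WT, 88.0% in Enl-T1), so intervals took 2 counts as 1 fragment. The study's filters on fragments, blacklist share and start-site enrichment were not applied here, and doublets were not removed.

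Peaks that overlapped between libraries by at least 1 bp were joined into 110706 shared regions, which contain 88.8% of all Enl-WT counts and 94.9% of those in Enl-T1. Genes were summed over regions in the gene body and 2 kb upstream (GENCODE M21). Nuclei were clustered by latent semantic indexing and the Leiden algorithm, at resolution 1 for all nuclei and 0.5 for members. Ratios carry exact conditional intervals and shares Clopper-Pearson intervals, both for counting error only, and the ratio scripts were tested on simulated data. With 1 library per group no p-value was computed, and a gene counts as different past 2-fold (members against others, both libraries, at least 50 counts) or 1.5-fold (Enl-T1 against Enl-WT, at least 100 counts). Members and gene lists were chosen with earlier results of these data known. Genes named without remark are the 7 rule markers, in each endothelial list the 4 most open and the 2 that differed most between libraries, in each other-cell list the most open (1 such gene is not reported here), and over all genes the 10 highest ratios of members to others and the 5 highest and 5 lowest of Enl-T1 to Enl-WT. Regions named are the 6 highest beyond 2 kb of a start and the 4 highest and 4 lowest of Enl-T1 to Enl-WT. Alternatives changed the threshold, markers, count minimum, scaling, region matching and clustering. Thinning, the use of cluster nuclei, values per kb and the share over all distal regions were added after seeing the data. Python 3.11.15, numpy 2.4.6, scipy 1.17.1, scikit-learn 1.9.0, leidenalg 0.10.2 and matplotlib 3.10.9 were used.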

Additional observations from a re-analysis of the deposited data

Results flagged for a closer look

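Dll4, the Notch ligand of arterial and tip cells, and Bmx, a kinase of arterial endothelium, had peaks in the Enl-WT library and none in the Enl-T1 library, so they entered no comparison above. Dll4 had 1 peak with 209 counts in Enl-WT members, at 30.9 CPM against 7.74 CPM in the other nuclei, or 2.00 log2 (1.68 to 2.31). Bmx had 3 peaks with 81 counts in members, at 12 against 4.74 CPM, or 1.34 log2 (0.83 to 1.82). Peaks were called in each library separately and Enl-T1 members were shallower, so the lack of a called peak in Enl-T1 says nothing of the level there.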

How the results depend on the processing

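No paired analysis was possible because each group was 1 library. The share of endothelial members in each library gave a ratio of Enl-WT to Enl-T1 of 2.27. It was 2.79 without the marker Pecam1, 2.72 for members in the endothelial-like cluster, 2.96 for members of subgroups 1 and 2, and 1.66 for all nuclei of the cluster. The lists of 500 distal regions shared 88.4% among regions matched at 80% overlap. A minimum of 100 counts in each library left 209 regions, too few for lists of 500, so the overlap had no value there. Regions at least 1.5-fold higher in Enl-T1 were 1.19% with a minimum of 200 counts and 33.8% with none. Those lower were 7.79% and 19.6%, and 7.57% over all nuclei of the cluster. After centring, subgroup 1 had 53.9% of the Enl-WT but 35.2% of the Enl-T1 members. Subgroup 2 held 28.5% of Enl-T1 members after centring, and 18.6% of Enl-WT and 28.9% of Enl-T1 members at a resolution of 0.8, where 5 groups formed. Of the named genes at least 1.5-fold apart between the members of the libraries, 4 had the opposite sign in the cluster nuclei that were not members: Angpt2 (-0.11), Sim1 (-0.076), Il17d (-0.60) and Brdt (0.10). Several smaller differences changed sign there too, such as Sox7 (-0.58 to 0.02) and Tgfbr2 (-0.37 to 0.05). The cause was not tested.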
